A study of Homo sapiens with 6 samples.

Results

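RAB proteins are the largest family of small GTPases. In K562, a human leukaemia cell line that carries the Bcr-Abl fusion, 63 genes with a RAB symbol (RAB followed by a number and at most one letter) were found among the 19053 genes with a symbol in the deposited read count table. They stand on 169 of its 109018 rows, because each row is a RefSeq protein accession and isoforms of a gene have separate rows. RNA was sequenced from 3 libraries of K562 cells that express a short hairpin RNA (shRNA) against lncRNA-IUR-5, named lncRNA-IIRX in the sample labels (sh-IUR-5), and from 3 libraries of K562 cells that express an shRNA against luciferase (sh-luc). All cells carry a stably expressed shRNA construct, and the luciferase shRNA is the control. The extraction notes speak of independent groups of cells, but the library descriptions give libraries 2 and 3 of each group a shared first number, called a series here, whose meaning is not stated. A shared origin of these libraries cannot be told apart from separate ones. The comparison asks which transcripts differ once lncRNA-IUR-5 is silenced, and since the rows are protein accessions, the level of the lncRNA, the check of the silencing, was not analysed here.

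RAB proteins switch between a GTP-bound form, which sits on a membrane and recruits effectors, and a GDP-bound form, which is carried in the cytosol by a GDP dissociation inhibitor. Guanine nucleotide exchange factors (GEFs) load GTP and GTPase-activating proteins (GAPs) speed its hydrolysis. Each RAB marks a compartment: RAB5 early endosomes, RAB4 and RAB11 recycling endosomes, RAB7 late endosomes and lysosomes, RAB1 and RAB6 the transport between endoplasmic reticulum (ER) and Golgi. RAB5, RAB4 and RAB11 together form the path by which the transferrin receptor (CD71, TFRC), which brings iron into erythroid cells, is taken up and returned to the cell surface.

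The libraries held 21023739 to 31481109 reads, the most in sh-IUR-5 library 1. The erythroid markers HBG1 (6149 to 8666 RPKM, reads scaled to row length and library total) and GATA1 (43.3 to 60.9 RPKM) were high in every library, while CD3E and CD14, markers of T cells and monocytes, stayed at or under 0.206 RPKM. All 3 sh-IUR-5 values of HBG1 lay below the 3 sh-luc values, whereas the erythroid factor TAL1 ran from 2.64 to 3.22 RPKM in sh-IUR-5 against 1.22 to 1.81 in sh-luc. The part of this shift in the RAB values was not tested. Fold changes, as log2 of sh-IUR-5 over sh-luc with the standard error (SE), come from the quasi-likelihood test of edgeR on counts scaled by TMM, a correction for library composition, with Benjamini-Hochberg adjustment over all 38204 rows with a mean of at least 1 RPKM. RPKM itself was scaled to total reads only. The TMM factors ran from 0.929 to 0.942 in sh-luc and from 1.05 to 1.10 in sh-IUR-5, so a gene with equal RPKM in both groups has a negative scaled log2 fold change.

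Of the 63 RAB genes, 36 reached a mean of 1 RPKM in the row with the most reads and were tested. RAB5A, RAB5B and RAB5C, RAB7A, RAB10, RAB14 and 5 others were higher in sh-IUR-5, and RAB43, RAB24, RAB32, RAB27A and RAB13 were lower. This is 11 higher and 5 lower, or 30.6% and 13.9% of the tested members. Among all 8873 genes tested with 1 row each, 45.9% passed, 22.4% higher and 23.5% lower, so the RAB share that passed, 44.4%, lies near the background. The median log2 fold change was 0.16 over the tested RAB genes and -0.01 over all genes tested. In the row read for each gene, no RAB gene reached a 2-fold change, and the log2 values ran from -0.85 to 0.74. Other rows of RAB23 (1.16, edgeR adjusted p = 0.00573) and RAB33B (1.01, edgeR adjusted p = 0.00581) exceeded 2-fold. Those rows held only 121 and 150 reads over the 6 libraries. With total reads in place of TMM scaling, which moves the median of all rows from 0.01 to 0.20, the split became 20 higher and 2 lower, beside 38.2% and 12.6% of all genes in that fit. With the series as a term, 16 were higher and 7 lower, beside 27.4% and 29.1%.

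The RAB transcripts spread over a range of levels. RAB11A, of recycling endosomes, was the highest with a mean of 115 RPKM over the 6 libraries, followed by RAB10 (95.2), RAB7A (85.8), RAB1A (78.5) and RAB1B (75.7). In all, 8 genes lay above 50 RPKM, 16 between 10 and 50 and 12 between 1 and 10, and the 10 highest made up 68.9% of the RPKM summed over the row read for each RAB gene. The order differed between groups and with the rows counted. In sh-luc, RAB13 (mean 77.5 RPKM) came second, above RAB10 (74.0), and with all rows of a gene summed RAB1A (131 RPKM over the 6 libraries) and RAB13 (129) followed RAB11A (146). In sh-luc the ranges of RAB7A (64.7 to 71.5), RAB1A (65.2 to 72.1) and RAB1B (68.1 to 75.6) overlapped, so their order does not exceed the spread between libraries, while RAB11A (110 to 112) stood above them.

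**Figure D1:**
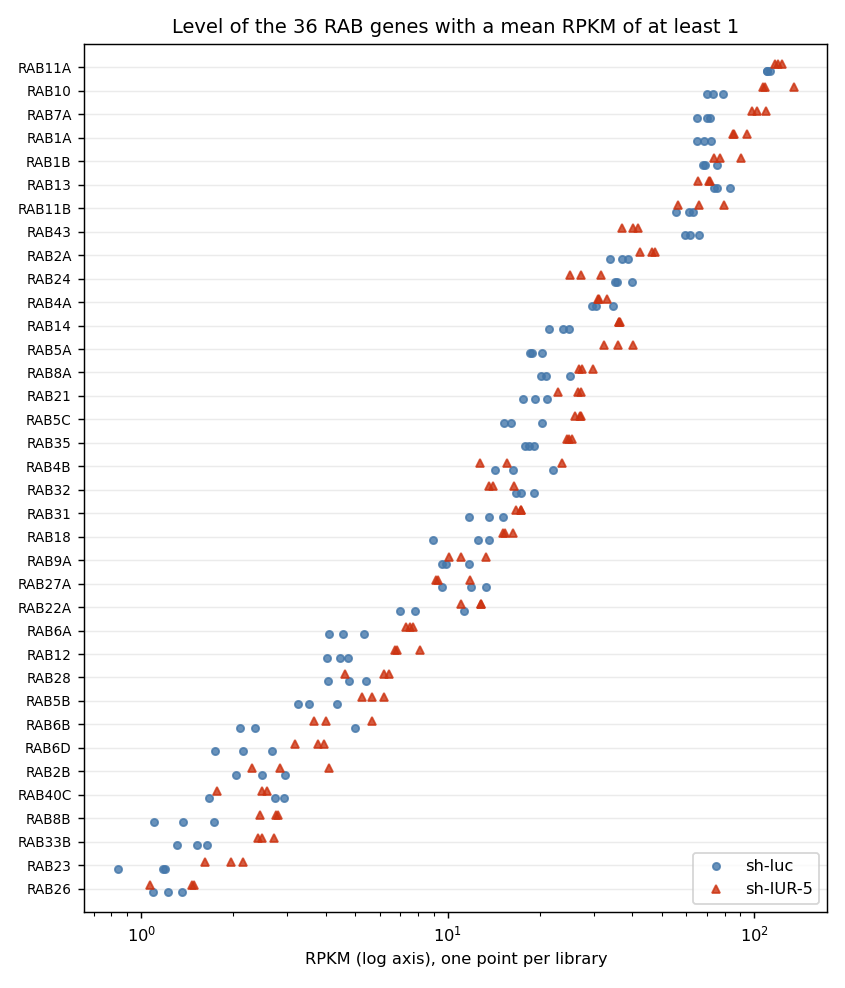
RPKM on a log axis of the 36 RAB genes with a mean of at least 1 RPKM, ordered by that mean, with 1 point for each of the 3 sh-luc (circles) and 3 sh-IUR-5 (triangles) libraries. RPKM is scaled to total reads, and RAB43 and RAB24 have all sh-IUR-5 points below the sh-luc points, whereas RAB5A and RAB10 have them above.

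The 3 RAB5 genes, whose products drive fusion of early endosomes, all rose. RAB5A (NP_004153.2, hg38 chromosome 3, 19947097 to 19985175) was at 18.9, 20.3 and 18.6 RPKM in sh-luc libraries 1, 2 and 3 and at 40.05, 35.97 and 32.3 in sh-IUR-5. The groups did not overlap, and the mean went from 19.3 ± 0.945 (SD, n = 3) to 36.1 ± 3.88 (n = 3), a log2 fold change of 0.71 (SE 0.098, edgeR adjusted p = 2.08e-05). RAB5C (NP_001238968.1, chromosome 17, 42124979 to 42154989) was at 15.3, 16.1 and 20.4 RPKM in sh-luc and 26.9, 27.2 and 26.0 in sh-IUR-5. RAB5C was also higher in every sh-IUR-5 library, with a log2 fold change of 0.44 (SE 0.106, edgeR adjusted p = 0.00325).

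RAB5B (NP_002859.1, chromosome 12, 55973949 to 55996683) was the least abundant of the 3 genes. It was at 4.37, 3.26 and 3.52 RPKM in sh-luc and 6.18, 5.65 and 5.24 in sh-IUR-5, with a log2 fold change of 0.42 (SE 0.160, edgeR adjusted p = 0.0474). The groups did not overlap, yet this call was lost in DESeq2 and when any of 5 single libraries was left out, with an adjusted p up to 0.163. It was kept when the reads of all RAB5B rows were summed (0.59, edgeR adjusted p = 0.00622). The 3 genes stand on 8 rows, all of which passed in the higher direction, with log2 fold changes from 0.33 to 0.91. Reads of near-identical isoforms may be shared between those rows, so they are not independent.

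RAB4 and RAB11, the recycling RABs, did not pass. Of the 7 RAB4, RAB5 and RAB11 genes, 3 (42.9%) thus passed, beside 45.9% of all genes tested. RAB4A was at 34.6, 30.3 and 29.5 RPKM in sh-luc and 33.1, 31.1 and 30.8 in sh-IUR-5. These RPKM, which are not TMM-scaled, overlapped. After TMM scaling the log2 fold change of RAB4A was -0.19 (SE 0.092, edgeR adjusted p = 0.12). RAB4B was at 22.0, 14.2 and 16.4 RPKM in sh-luc and 23.6, 15.6 and 12.7 in sh-IUR-5, the highest value of both groups being that of library 1 (-0.21, SE 0.172, edgeR adjusted p = 0.357). The shorter of the 2 RAB4A rows was lower (-0.41, edgeR adjusted p = 0.0133), as was the sum of both rows (-0.26, edgeR adjusted p = 0.0251), so the RAB4A result depends on the row that is read. With the series as a term, RAB4A (-0.19, edgeR adjusted p = 0.036) and RAB4B (-0.22, edgeR adjusted p = 0.0448) both passed.

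RAB11A was at 112, 110 and 110 RPKM in sh-luc and 120, 117 and 123 in sh-IUR-5. These RPKM do not overlap, but after TMM scaling the log2 fold change was -0.08 (SE 0.073, edgeR adjusted p = 0.4). RAB11B was at 61.0, 55.4 and 63.2 RPKM in sh-luc and 79.5, 66.1 and 56.4 in sh-IUR-5, with wide overlap (-0.02, SE 0.0997, edgeR adjusted p = 0.873). For both RAB11 genes the sign turns with the scaling: with total reads only, the log2 values were 0.11 and 0.17. With trends on GC content and length removed, RAB11B was at 0.23 (edgeR adjusted p = 0.0495).

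**Figure D2:**
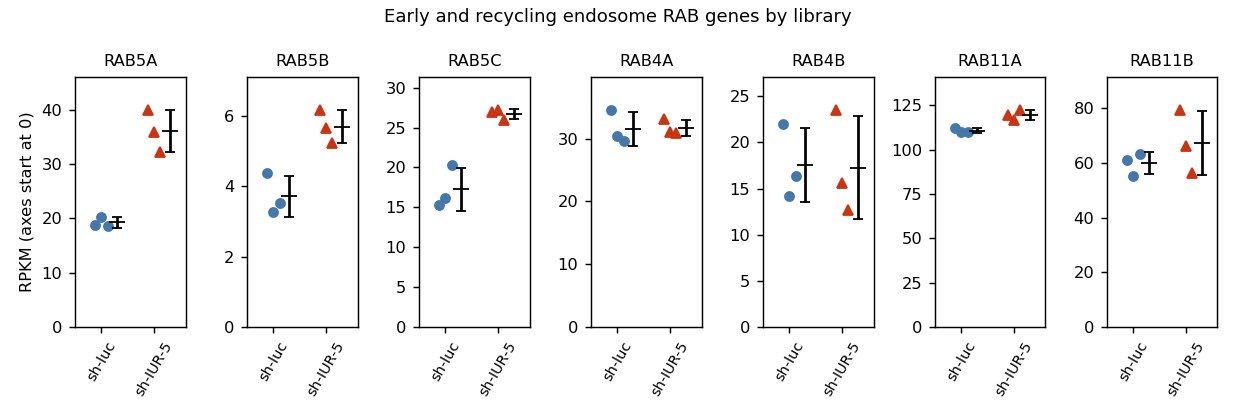
RPKM of RAB5A, RAB5B, RAB5C, RAB4A, RAB4B, RAB11A and RAB11B in each library, with the mean and SD (n = 3) at the right of each group. Every axis starts at 0, and the 3 RAB5 panels separate the groups, whereas those of RAB4A, RAB4B and RAB11B do not.

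Ratios within a library do not depend on how libraries are scaled to each other. The reads of all RAB5 rows, divided by those of all RAB11 rows, gave 0.394, 0.399 and 0.414 in sh-luc and 0.590, 0.612 and 0.604 in sh-IUR-5. The groups were far apart, with a ratio of the means of 1.496. RAB5 relative to RAB4 went from 1.32 ± 0.153 (SD, n = 3) to 2.25 ± 0.167 (n = 3), and RAB4 relative to RAB11 from 0.306 ± 0.0289 to 0.268 ± 0.0162. The last pair of groups overlapped. These ratios were formed with the RAB5 values known, so no test of them is reported.

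**Figure D3:**
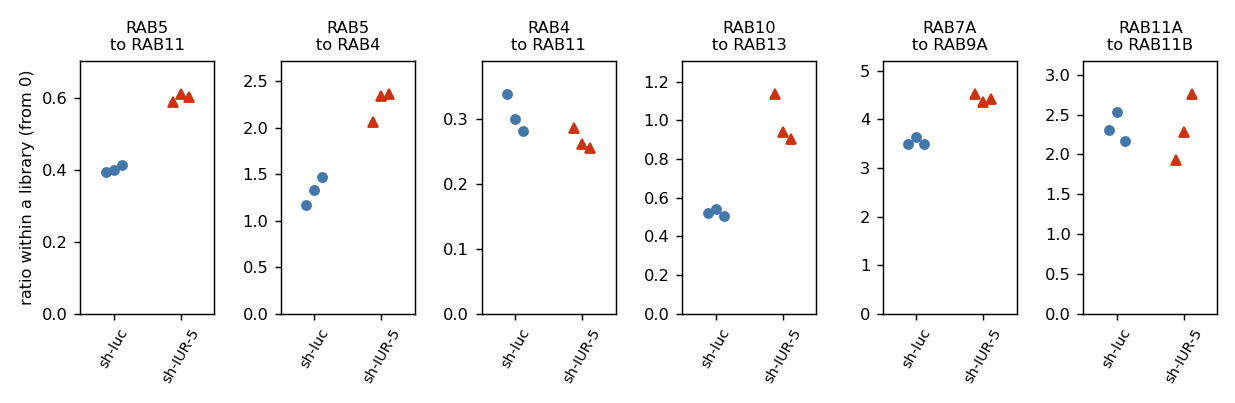
Ratios of the reads of all rows (RAB5, RAB4 and RAB11 families) or of these reads per length of the longest row (RAB10 to RAB13, RAB7A to RAB9A, RAB11A to RAB11B) within each library, on axes from 0. The RAB5 to RAB11 ratio lies at 0.394 to 0.414 in sh-luc and 0.590 to 0.612 in sh-IUR-5, and the RAB11A to RAB11B ratio overlaps between groups. Ratios that hold genes called in these libraries are no separate evidence.

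TFRC, the cargo of this path, rose from 18.2 ± 0.489 to 45.1 ± 5.23 RPKM (SD, n = 3 each), a log2 fold change of 1.11 (SE 0.083, edgeR adjusted p = 1.75e-07). ACTB and GAPDH, reference genes of the cytoskeleton and glycolysis, had log2 fold changes of 0.02 (edgeR adjusted p = 0.819) and -0.17 (edgeR adjusted p = 0.0511). With its 4 rows summed, GAPDH was lower (-0.19, edgeR adjusted p = 0.0291).

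The promoter windows of RAB5A and RAB5C, which rose, and of RAB4A and RAB11A, which did not pass, show the sequence around their RefSeq start sites. Each window runs from 250 bases before the start to 50 after it in GRCh38.p14, on the strand of the gene, with matches on either strand to the motifs searched in capitals. RAB5A (chr3:19946847-19947146, plus strand), RAB5C (chr17:42154940-42155239, minus strand), RAB4A (chr1:229270861-229271160, plus strand) and RAB11A (chr15:65869241-65869540, plus strand) read, 5′ to 3′:
RAB5A: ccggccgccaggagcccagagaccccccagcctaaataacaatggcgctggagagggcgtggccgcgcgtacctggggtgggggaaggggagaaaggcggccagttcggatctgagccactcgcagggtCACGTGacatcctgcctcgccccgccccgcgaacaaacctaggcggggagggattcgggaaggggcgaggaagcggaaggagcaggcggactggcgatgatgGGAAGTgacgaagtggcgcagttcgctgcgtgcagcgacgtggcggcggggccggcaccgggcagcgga
RAB5C: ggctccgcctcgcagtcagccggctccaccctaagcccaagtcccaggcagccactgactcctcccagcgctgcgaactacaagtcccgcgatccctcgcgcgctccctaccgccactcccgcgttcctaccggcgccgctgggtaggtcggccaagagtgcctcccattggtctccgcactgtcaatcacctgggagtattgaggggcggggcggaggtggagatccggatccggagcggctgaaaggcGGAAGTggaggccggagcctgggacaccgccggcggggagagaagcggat
RAB4A: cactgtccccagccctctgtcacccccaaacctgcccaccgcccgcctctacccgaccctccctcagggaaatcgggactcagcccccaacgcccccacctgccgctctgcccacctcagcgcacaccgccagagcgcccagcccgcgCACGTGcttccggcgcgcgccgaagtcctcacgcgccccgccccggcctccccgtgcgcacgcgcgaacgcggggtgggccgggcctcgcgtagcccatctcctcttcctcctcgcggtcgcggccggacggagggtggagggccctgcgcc
RAB11A: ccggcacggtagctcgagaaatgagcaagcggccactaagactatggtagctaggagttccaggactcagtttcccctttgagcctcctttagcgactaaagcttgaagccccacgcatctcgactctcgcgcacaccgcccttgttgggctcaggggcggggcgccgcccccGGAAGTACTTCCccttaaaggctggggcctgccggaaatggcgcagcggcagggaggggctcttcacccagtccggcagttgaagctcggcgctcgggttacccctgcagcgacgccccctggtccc
The motifs were searched on both strands. TTCNNNGAA is bound by factors of the STAT family. CACGTG is the E-box of the MYC and USF type. The letters AGATAA are those of a site for the GATA family. For the ETS family the letters searched were GGAAGT. RAB5A holds CACGTG and GGAAGT, RAB5C holds GGAAGT, RAB4A holds CACGTG, and RAB11A holds GGAAGT on both strands, as an adjoining pair. Of 71 windows found for 50 RAB genes, 2 held TTCNNNGAA (RAB1B and RAB30), 6 CACGTG, 5 AGATAA and 22 GGAAGT. Over all 35116 windows of the RefSeq table the shares were 7.66%, 7.26%, 10.3% and 22.8%. No match was present in either RAB5B window.

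Of 10 tested RABs of other endosomal compartments and the plasma membrane, 4 were higher and 1 lower, with a median log2 fold change of 0.27. The share called, 50%, lies near the 45.9% of all genes tested. RAB10 (chromosome 2, 26033285 to 26137454), which acts in exocytosis and recycling, was at 78.9, 73.1 and 70.0 RPKM in sh-luc and 134, 107 and 108 in sh-IUR-5. The groups did not overlap, and the log2 fold change was 0.46 (SE 0.088, edgeR adjusted p = 0.000534). RAB14, between Golgi and early endosomes, went from 23.3 ± 1.76 to 36.3 ± 0.216 RPKM (SD, n = 3 each; 0.45, edgeR adjusted p = 0.000942), and RAB12, a recycling and lysosomal RAB, from 4.40 ± 0.352 to 7.22 ± 0.787 (0.53, edgeR adjusted p = 0.00583).

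RAB8B, which acts in transport to the plasma membrane, had the largest rise at a low level, 1.10, 1.73 and 1.37 RPKM in sh-luc and 2.75, 2.44 and 2.78 in sh-IUR-5 (0.74, SE 0.231, edgeR adjusted p = 0.0178). The groups did not overlap, but the call was lost in DESeq2 and without sh-luc library 1 or 3 (edgeR adjusted p up to 0.0895). Its paralog RAB8A, at 22.0 ± 2.69 and 28.0 ± 1.61 RPKM, did not pass (0.15, edgeR adjusted p = 0.261).

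RAB13 (chromosome 1, 153981650 to 153990708), a RAB of cell junctions, went the other way. It was at 83.1, 73.9 and 75.6 RPKM in sh-luc and 71.3, 65.6 and 71.6 in sh-IUR-5, below the control in every library (-0.35, SE 0.081, edgeR adjusted p = 0.00234). All 3 RAB13 rows passed, from -0.35 to -0.67, but with total reads only, in limma on RPKM and with the length trend removed RAB13 did not pass (log2 values up to -0.16). With the reads of all rows of a gene divided by the length of its longest row, RAB10 relative to RAB13 was 0.523, 0.542 and 0.503 in sh-luc and 1.14, 0.939 and 0.905 in sh-IUR-5. The 2 genes were called in opposite directions in the same libraries, so their ratio is no separate evidence. RAB35, RAB21, RAB22A and RAB31 had log2 fold changes from 0.15 to 0.30 and did not pass, although RAB35 came near (0.24, edgeR adjusted p = 0.0551). With the series as a term RAB35 (edgeR adjusted p = 0.018), RAB22A (0.0377) and RAB21 (0.0462) passed.

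Among ER and Golgi RABs, 3 of 10 tested genes were higher and 1 lower, with a median of 0.20. This is 40% called, beside 45.9% of all genes tested. RAB6A, which acts in retrograde Golgi transport, went from 4.10, 4.56 and 5.31 RPKM to 7.70, 7.54 and 7.28 (0.50, SE 0.143, edgeR adjusted p = 0.0103), a call lost without sh-luc library 1 (edgeR adjusted p = 0.0553). RAB6D, a close copy, went from 2.19 ± 0.469 to 3.63 ± 0.405 RPKM (0.55, edgeR adjusted p = 0.03). RAB6A, RAB6C and RAB6D may share reads, so their separate values are uncertain. RAB33B, a Golgi and autophagy RAB, went from 1.49 ± 0.168 to 2.53 ± 0.163 RPKM (0.56, edgeR adjusted p = 0.0344). The RAB6D and RAB33B calls were lost in DESeq2 and in 4 of the 6 fits that left out a library, for RAB6D without library 1 or 2 of either group and for RAB33B without library 2 or 3 of either group (edgeR adjusted p up to 0.145 and 0.125). RAB1A (0.17, edgeR adjusted p = 0.111) and RAB1B (-0.01, edgeR adjusted p = 0.938), of ER to Golgi transport, and RAB2A (0.12, edgeR adjusted p = 0.299) did not pass. RAB1A passed with the series as a term (edgeR adjusted p = 0.0234) and with the trends on GC content and length removed (edgeR adjusted p = 0.0283).

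RAB43, which acts at the ER and Golgi, had the largest fall. It was at 66.1, 59.5 and 61.8 RPKM in sh-luc and 40.3, 36.9 and 41.6 in sh-IUR-5 (-0.85, SE 0.089, edgeR adjusted p = 1.18e-06). The value rests on NP_001191816.1, a row of 468 bases with 3419 reads. The 5 RAB43 rows of 639 bases held only 4 to 24 reads per library and were not tested. The readthrough transcript ISY1-RAB43 overlaps the gene and may share its reads.

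Of 4 tested late endosome and lysosome RABs, 1 was higher and 2 lower, with a median of -0.25. This is 75% of only 4 genes, beside 45.9% of all genes tested. RAB7A (chromosome 3, 128726183 to 128814798), which directs endosomes to lysosomes, was at 64.7, 71.5 and 70.3 RPKM in sh-luc and 109, 102 and 98.1 in sh-IUR-5 (0.39, SE 0.078, edgeR adjusted p = 0.000859). RAB9A, of transport from late endosomes to the Golgi, was at 9.84, 9.59 and 11.7 RPKM in sh-luc and 13.3, 11.1 and 10.1 in sh-IUR-5, which overlap (-0.04, edgeR adjusted p = 0.827). On the scale used for RAB10 and RAB13, RAB7A relative to RAB9A was 3.55 ± 0.0779 in sh-luc and 4.44 ± 0.0857 in sh-IUR-5 (SD, n = 3 each). RAB7A was called in the same libraries, so this ratio is no separate evidence.

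RAB24, an autophagy RAB, was at 40.01, 35.2 and 35.5 RPKM in sh-luc and 31.7, 27.3 and 24.96 in sh-IUR-5, lower in every library (-0.59, SE 0.099, edgeR adjusted p = 0.00014). RAB32, of lysosome-related organelles, went from 17.7 ± 1.22 to 14.7 ± 1.55 RPKM (-0.46, edgeR adjusted p = 0.00185), a call lost with total reads only. Both RAB24 rows were lower.

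Of the secretory vesicle and granule RABs only RAB26 and RAB27A were tested. RAB27A, which docks secretory granules and exosome-forming bodies, was at 9.59, 13.3 and 11.9 RPKM in sh-luc and 9.16, 9.26 and 11.8 in sh-IUR-5 (-0.40, SE 0.139, edgeR adjusted p = 0.0309). Its groups overlapped, and its 4 rows of 666 bases held nearly the same number of reads, 957 to 1042. The other 3 rows had log2 fold changes from -0.10 to -0.20 and did not pass, nor did the sum of the rows (-0.22, edgeR adjusted p = 0.15). The call was also lost in DESeq2 and without library 2 or 3 of sh-luc or library 1 or 2 of sh-IUR-5 (edgeR adjusted p up to 0.167). RAB26 was at 1.23 ± 0.131 and 1.34 ± 0.236 RPKM (edgeR adjusted p = 0.878). RAB23, a RAB of cilia and hedgehog signalling, lay at the threshold (0.64, SE 0.249, edgeR adjusted p = 0.0504) and passed with its 5 rows summed (0.76, edgeR adjusted p = 0.00359).

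**Figure D4:**
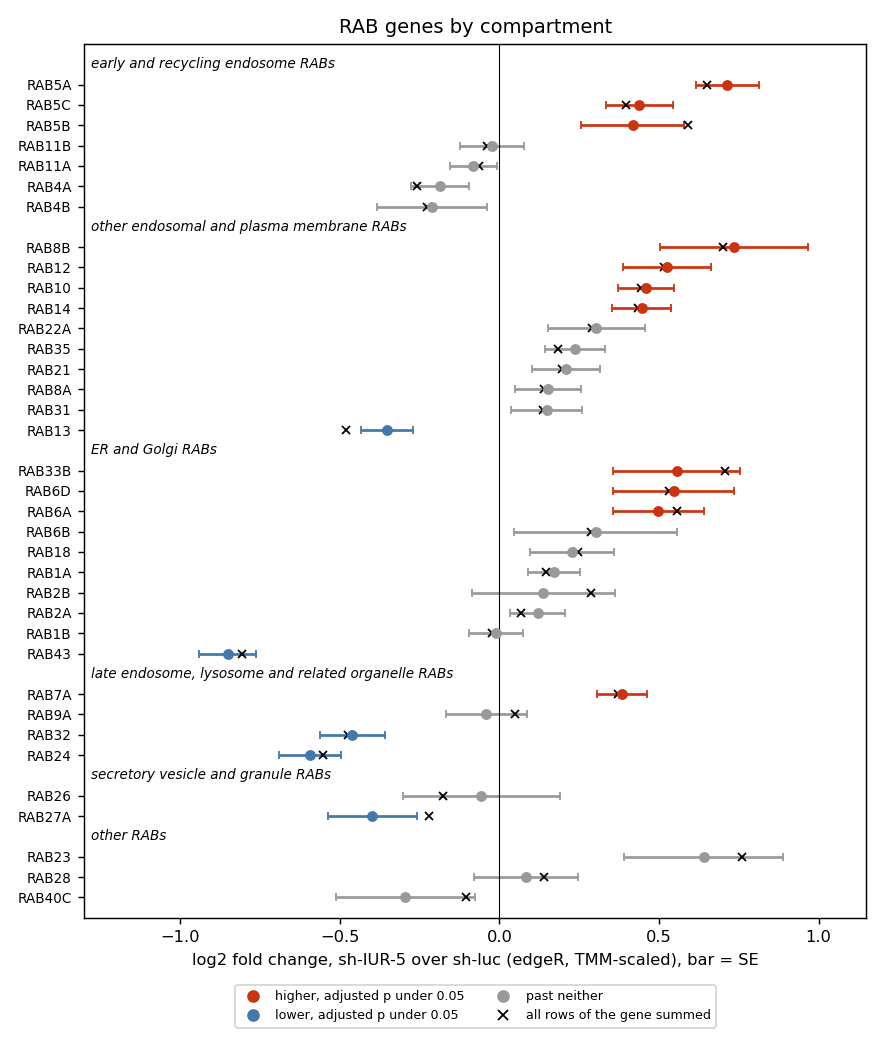
Log2 fold change of sh-IUR-5 over sh-luc (edgeR, TMM-scaled) with SE for the 36 tested RAB genes, grouped by compartment and coloured by whether they passed at an adjusted p under 0.05. Crosses give the value with all rows of a gene summed, which for RAB27A and RAB40C lies nearer to 0.

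Over single rows, 76 RAB rows were tested, of which 22 were higher and 9 lower, beside 37.3% of all rows past the threshold. With the rows of a gene summed, 39 RAB genes reached the minimum and 11 were higher and 5 lower, beside 48.1% of all 10292 genes so summed. Of the 16 genes called on the row with the most reads, 14 were called in the same direction on the sum. By RPKM, 20 RAB genes had all sh-IUR-5 libraries above all sh-luc libraries and 4 had them all below, against 42.6% and 14.7% of all genes. After division by the TMM factors, a scaling chosen after seeing the data, these counts were 14 and 6, against 26.9% and 27.5% of all genes.

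**Figure D5:**
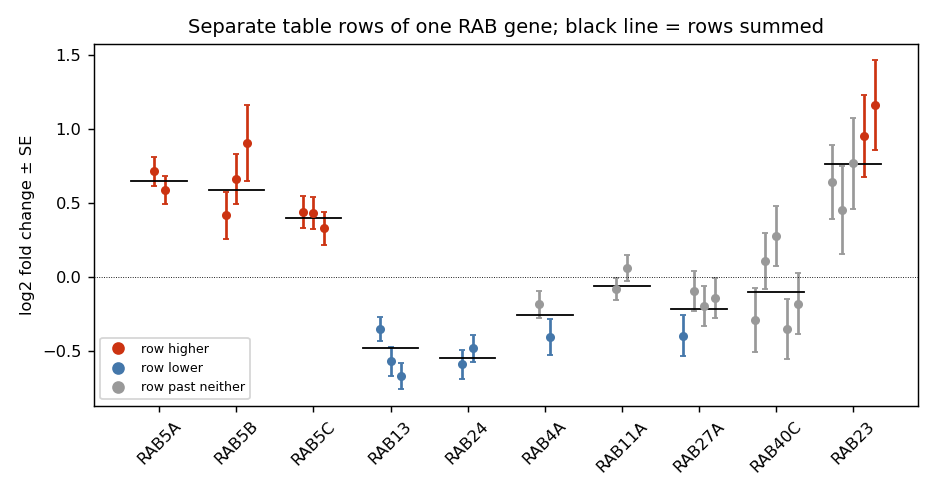
Log2 fold change with SE of each tested row of 10 RAB genes that have several rows, with the value of the summed rows as a black line. All 8 RAB5 rows lie above 0 and all RAB13 and RAB24 rows below, while the RAB40C rows lie on both sides of 0.

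Coding GC content moved with the fold change over all genes tested: Pearson's r was -0.23 across genes, which are not independent replicates. The median coding GC content was 46.1% in the 11 higher RAB genes, 53.3% in the 5 lower and 51.9% over all genes tested. It was 46.9% in the 20 RAB genes that did not pass and 47.8% in all 36 tested. The part of GC content in the RAB values was not tested. With the trends on GC content and row length removed, 15 RAB genes were higher and 5 lower, beside 21.7% and 20.2% of the 8766 genes in that fit.

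The remaining 27 RAB genes lay under 1 RPKM in the row with the most reads. Of these, 22 had at least 1 read in the row read, the highest being RAB38 (0.914 RPKM), RAB6C (0.889) and RAB40B (0.800). RAB3A, of synaptic vesicles, was at 0.685 RPKM and RAB25, an epithelial RAB, at 0.0491. In 13 genes fewer than 10 reads were counted over all 6 libraries. RAB3C, RAB27B, RAB37, RAB39A and RAB44 had no read in any library, which allows up to 3 reads per library, or 0.218 RPKM at most for RAB39A and 0.0465 for RAB44 in the shallowest library. These limits cover counting error only. RAB29 was listed under the minimum in each of its 12 rows and reached 4.36 RPKM only as their sum. RAB40B (1.65 RPKM) and RAB38 (1.30) also reached the minimum only with their rows summed.

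The genes that deliver RABs to membranes and prenylate them held 2 higher and 0 lower among 6 tested by edgeR, with 4 that did not pass. The share called was 33.3%, beside 45.9% of all genes tested. CHML, a RAB escort protein that presents RABs to the prenyltransferase, was at 3.11, 4.04 and 3.76 RPKM in sh-luc and 9.48, 9.97 and 9.61 in sh-IUR-5, the largest change of the group (1.22, SE 0.109, edgeR adjusted p = 2.88e-07). GDI2, a GDP dissociation inhibitor that extracts RABs from membranes, went from 89.1 ± 4.55 to 128 ± 3.58 RPKM (0.32, edgeR adjusted p = 0.00203). The geranylgeranyl transferase subunits RABGGTA and RABGGTB and the RAB chaperone RABIF had log2 fold changes from -0.22 to -0.12 and did not pass.

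Of 18 GEFs tested, 8 (44.4%) were higher and 1 (5.56%) lower, with a median of 0.26. Over all genes tested, 22.4% were higher and 23.5% lower. RAB3GAP1 and RAB3GAP2, which together activate RAB18, rose by 0.44 (edgeR adjusted p = 0.000649) and 0.73 (edgeR adjusted p = 6.59e-06), and RGP1, a subunit of the RAB6 exchange factor, by 0.72 (edgeR adjusted p = 0.000233). DENND5B was the 1 that fell, from 51.5 ± 4.12 to 33.2 ± 0.544 RPKM (-0.83, edgeR adjusted p = 3.80e-07). RAB18 itself did not pass (0.23, edgeR adjusted p = 0.181).

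Of 21 GAPs tested, 6 were higher and 4 lower (47.6% called), with a median of 0.19. TBC1D22A (-0.98, edgeR adjusted p = 4.09e-07) and TBC1D17 (-0.81, edgeR adjusted p = 7.69e-07) had the smallest adjusted p, followed by TBC1D23 (0.73), TBC1D13 (0.72) and TBC1D22B (0.79), which were higher. TBC1D22A and TBC1D22B, paralogs, thus differed in direction. Of 29 effectors tested, 7 were higher and 6 lower (44.8% called), with a median of 0.17. BICD2, the dynein adaptor that RAB6 recruits, went from 0.830 ± 0.1497 to 1.97 ± 0.414 RPKM (1.06, edgeR adjusted p = 0.000142), and WDR44, an effector of RAB11, from 1.07 ± 0.0616 to 2.20 ± 0.276 (0.84, edgeR adjusted p = 0.000134). The sh-luc values of BICD2 (0.668, 0.858 and 0.963 RPKM) lay under the minimum of 1 RPKM, so it was tested only through its sh-IUR-5 values. The same holds for the GEF DENND6A (mean 0.865 RPKM in sh-luc and 1.73 in sh-IUR-5), and both count among the higher genes. MICAL3 (-0.71), RABAC1, which binds prenylated RABs (-0.62), and MICALL2 (-0.53) were lower. Over these 4 lists, 23 of 74 tested genes were higher and 11 lower (31.1% and 14.9%). The share called, 45.9%, was the same as over all genes tested, where 22.4% were higher and 23.5% lower.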

How the data were processed

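RNA was measured by RNA-seq in 3 sh-IUR-5 and 3 sh-luc libraries of K562 cells. The submitters' processing notes name CASAVA 1.8, Trimmomatic 0.32, Bowtie2 2.1.0, SAMtools 0.1.19 and hg38. The authors deposited counts of reads on each RefSeq protein accession, not normalized. The deposited RPKM equals reads divided by row length and by library total in every row. The authors' separate table of their comparison holds pooled counts, pooled RPKM, fold and log2 values, p-values and q-values and was not used. How reads that fit several isoforms were assigned is not given in the sources used here. Row lengths were multiples of 3 in 99.8% of rows, so they are coding lengths.

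Gene symbols were matched through the RefSeq gene list of GRCh38.p14 for 64.7% of rows. A gene was read at its row with the most reads over the 6 libraries. Counts of the 38204 rows with a mean RPKM of at least 1 were fitted with edgeR 4.0.16 (R 4.3.3; TMM, quasi-likelihood test, two-sided, Benjamini-Hochberg, threshold 0.05). Pseudocounts of 0.1 and 1 were used with limma 3.58.1 only, on log2(RPKM + pseudocount). DESeq2 1.42.0 and mgcv 1.9.3 (trends on coding GC content and length) served alternatives. The scripts were tested on simulated data. An exact permutation test of 3 libraries against 3 cannot go below 0.1. It was computed for the family levels and ratios, where it could not pass the threshold, and no statement here rests on it. Coordinates are those of the RefSeq gene list, and coding GC content is from GENCODE release 44 on hg38. Library totals were 23320543, 21327933 and 21023739 in sh-luc and 31481109, 24325122 and 24748331 in sh-IUR-5. p-values measure the spread between these libraries of 1 cell line, which may be technical.

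The RAB genes were grouped by compartment, and the members, lists, tests and motifs were chosen with earlier results of these data known. Named are all RAB4, RAB5 and RAB11 genes, the RAB genes past the threshold, the most abundant RABs, those with paralogs or readthrough transcripts, the delivery and prenylation genes (some genes are not reported here), the 5 of each other list with the smallest adjusted p, TFRC, ACTB and GAPDH. The other RABs and the lineage markers were named after their values were seen.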

Additional observations from a re-analysis of the deposited data

How the results depend on the processing

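Of the 16 RAB calls, 8 (RAB5A, RAB5C, RAB7A, RAB10, RAB12, RAB14, RAB24 and RAB43) kept their direction and side of the threshold in all 20 alternatives, and 10 in every fit that left out a library. RAB27A was lost in 11, RAB5B in 8, RAB6D in 7 and RAB33B in 6. With a library left out, the RAB genes past the threshold numbered 12 to 17 (8 to 12 higher, 4 to 5 lower), the RAB4, RAB5 and RAB11 genes 2 to 3, the cofactors, GEFs, GAPs and effectors 28 to 33 and all rows 11210 to 13582, against 14259. Among these fits the fewest RAB calls came without sh-luc library 3 or sh-IUR-5 library 2.

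DESeq2 called 7 RAB genes higher and 4 lower, beside 11171 of all 38204 rows past the threshold. Counts of RAB genes higher and lower were 20 and 2 with total reads, 20 and 2 with limma at a pseudocount of 0.1, 20 and 3 at 1, and 20 and 3 with the row length trend removed. With limma, 15489 rows passed at 0.1 and 15561 at 1, and the median log2 fold change of all rows was 0.19 and 0.15. Shares of higher and lower over all genes are not given for DESeq2, limma and the length trend. These RAB counts therefore do not show a change particular to RAB genes. With the library series (library 1 against libraries 2 and 3) as a term, 5 of the RAB4, RAB5 and RAB11 genes passed, RAB4A and RAB4B as lower. At a minimum of 5 RPKM, 18 of 27 tested RAB genes passed, 14 higher and 4 lower. In that fit 7357 of all 16092 rows passed, counted over all rows and not 1 per gene. The RAB share there was thus above that of all rows, and the difference was not tested. Of the cofactors, GEFs, GAPs and effectors, 20 passed. With all rows of a gene summed and the minimum at 1 RPKM, 54 cofactors, GEFs, GAPs and effectors passed, beside 48.1% of all 10292 genes so summed. The number of these genes tested on sums is not given. The cause was not tested, beyond the number of rows that the minimum leaves.

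Deviations from the group means correlated at 0.311, 0.0879 and -0.0126 between same-numbered libraries 1, 2 and 3, so numbers 2 and 3 did not pair the samples. Between library 1 of a group and libraries 2 and 3 of the other, all values were negative (-0.267 to -0.0714). The values thus differed by series, but are not independent, since deviations within a group sum to 0. The reported fit has no term for the series, and with that term 17918 rows passed, against 14259. With the number as a replicate block, 14 RAB genes were higher and 5 lower and 16837 rows passed. With the block and the GC content and length trends removed together, 19 were higher and 5 lower. Shares of higher and lower over all genes are not given for the 2 fits with the block.

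Log2 fold changes that changed sign belong to genes that did not pass in the reported fit. They were, with total reads, RAB11A (0.11), RAB1B (0.19), RAB11B (0.17), RAB4A (0.0086), RAB9A (0.16) and RAB26 (0.14); at 5 RPKM, RAB11A (0.032), RAB1B (0.11), RAB11B (0.092) and RAB9A (0.075); with limma at 0.1, RAB11A (0.11), RAB1B (0.18), RAB11B (0.16), RAB4A (0.011), RAB9A (0.14) and RAB26 (0.11), and at 1, RAB11A (0.11), RAB1B (0.18), RAB11B (0.16), RAB4A (0.011), RAB9A (0.13) and RAB26 (0.069). With the length trend removed they were RAB11A (0.078), RAB1B (0.17), RAB11B (0.13), RAB9A (0.14) and RAB26 (0.064), with GC content and length trends removed RAB1B (0.21), RAB11B (0.23), RAB4B (0.029), RAB9A (0.00015) and RAB26 (0.18), and with the block as well RAB1B (0.21), RAB11B (0.22), RAB4B (0.014) and RAB26 (0.18). Both RAB1B and RAB11B passed in that last fit. With 1 row per gene it was RAB1B (0.011) and with rows summed RAB9A (0.049). With a library left out, values changed sign for RAB1B (-0.081 to 0.034), RAB11B (-0.14 to 0.078), RAB9A (-0.14 to 0.046), RAB28 (-0.017 to 0.20), RAB26 (-0.13 to 0.058) and RAB2B (-0.12 to 0.29). Genes under 10 RPKM rest on few reads, down to 146 over the 6 libraries.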

Other observations

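Among other families of small GTPases, 6 of 15 tested RAS family genes were higher and 1 lower, with a median log2 fold change of 0.09, and 4 of 19 tested ARF and ARL family genes were higher and 4 lower, with a median of 0.01. Over all genes tested, 45.9% passed. NRAS, a RAS gene that signals from membranes, went from 26.2 ± 1.72 to 54.8 ± 2.45 RPKM (SD, n = 3 each; log2 fold change 0.87, edgeR adjusted p = 1.16e-06), whereas HRAS went from 25.5 ± 3.02 to 16.0 ± 1.68 (-0.87, edgeR adjusted p = 1.33e-05). RAP1B, which controls integrin adhesion, was higher (0.67, edgeR adjusted p = 8.59e-05).

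ARL10 fell from 56.4 ± 5.07 to 32.4 ± 1.98 RPKM (-0.996, edgeR adjusted p = 3.18e-07). RHOA, an organiser of actin, was higher (0.28, edgeR adjusted p = 0.00996), and RAC1 (-0.31, edgeR adjusted p = 0.00212) and RAC3 (-0.69, edgeR adjusted p = 8.35e-05) were lower. RHOT1, a mitochondrial GTPase, was lower in its row with the most reads (-0.59) but not with its 9 rows summed (0.05, edgeR adjusted p = 0.659).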
